A study of Homo sapiens with 8 samples.

Results

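The condensin subunits are the 8 genes SMC2, SMC4, NCAPD2, NCAPG, NCAPH, NCAPD3, NCAPG2 and NCAPH2, chosen by symbol among the 58884 genes of the deposited expression table. All 8 were found once each, and all 8 passed the filter on low values (a mean of at least 10 normalized counts over the libraries), which left 17194 genes for testing. The cells were C4-2, a castration-resistant prostate cancer line derived from LNCaP, grown in medium with fetal bovine serum. There were 4 libraries of cells given 1 µM DTHIB (also called E12), a compound described as a direct inhibitor of the heat shock transcription factor HSF1, for 48 h, and 4 libraries of cells given its solvent DMSO for the same time. All 8 libraries come from 1 cell line. RNA was selected for poly(A) tails before sequencing.

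Condensins are ring-shaped ATPases that extrude loops of DNA and so shorten and stiffen chromosomes for mitosis. Both complexes share the ATPase pair SMC2 and SMC4. Condensin I adds the kleisin NCAPH, which closes the ring, and the HEAT-repeat subunits NCAPD2 and NCAPG, while condensin II adds the corresponding NCAPH2, NCAPD3 and NCAPG2. Condensin II is in the nucleus throughout the cell cycle, and condensin I reaches chromosomes after the nuclear envelope breaks down.

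The libraries held 27229291 to 29159387 counted reads in the DTHIB group and 29499458 to 30926053 in the DMSO group. Each member was covered by 536 reads or more in every library, a counting error of at most 4.32%. The luminal prostate markers KLK3, KLK2, FOLH1, TMPRSS2, KRT8 and KRT18 were all expressed, with a summed level of 186528 to 190347 normalized counts in DTHIB libraries and 146876 to 149568 in DMSO libraries. Of these, KLK3 (log2 fold change 0.49), FOLH1 (0.48), TMPRSS2 (0.32) and KLK2 (0.18) rose, and the keratins KRT8 (-0.35) and KRT18 (-0.11) fell; the KLK2 call was lost under quantile normalization (adjusted p = 0.0916). The summed levels were 17.0 to 26.1 and 16.3 to 31.8 for 3 basal markers, 5.98 to 15.98 and 9.58 to 14.4 for 4 stromal markers, 8.98 to 29.96 and 3.86 to 17.2 for 3 blood markers, and 145 to 193 and 132 to 170 for 3 endothelial markers, in DTHIB and DMSO libraries in that order. The endothelial sum was almost all VWF, which had 165 ± 20.5 normalized counts in DTHIB libraries and 148 ± 16.7 in DMSO libraries. CDH5 and CD3E held no reads in any DTHIB library, and KRT5, DCN and LUM none in any DMSO library. HSPH1, DNAJB1, HSPB1 and HSP90AA1, fixed as a check on the heat shock program, all fell (median log2 fold change -0.57), against 33.7% of all genes tested.

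All 8 condensin subunits fell in DTHIB-treated cells, and the kleisin of condensin I, NCAPH, fell furthest, to 26.6% of its DMSO mean. NCAPG stood at 29.8% of its DMSO mean, SMC2 at 36.7%, NCAPG2 at 43.9%, SMC4 at 45.2%, NCAPD2 at 50.5%, NCAPH2 at 55.7% and NCAPD3 at 74.2%. In every member all 4 DTHIB values lay below all 4 DMSO values. Of the 17194 genes tested, 64.6% changed by limma with a Benjamini-Hochberg adjusted p under 0.05, 33.7% in the downward direction, and 30.8% had all 4 DTHIB values below all 4 DMSO values, so that a fall by itself was common. A fall of at least 2-fold was less common, 4.36% of all genes tested against 5 of the 8 subunits (SMC2, SMC4, NCAPG, NCAPH and NCAPG2). The median log2 fold change was -1.17 over the 8 subunits and -0.0051 over all genes tested. In bulk RNA, fewer cells expressing a gene and less RNA of it per cell cannot be told apart.

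The window around the transcription start of most members held the letters TTTGAA, the core of the cell cycle genes homology region, an element of genes that peak in late cell cycle phases. RefSeq promoter windows (build GRCh38.p14, 250 bases before to 50 after a start) were available for 7 of the 8 members, 10 windows in all. On either strand 6 of these 10 windows held TTTGAA, 1 in each of 6 genes, against 15.2% of all 35116 windows of that length. The 30 bases around each match are shown with the match in capitals, 5′ to 3′ on the gene's strand. TTCAAA is the match read on the other strand. Only the letters in capitals were searched for, and the bases around them were not compared.

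NCAPG, chr4:17810932-17810961, plus strand: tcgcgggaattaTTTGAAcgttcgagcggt

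NCAPD2, chr12:6493945-6493974, plus strand: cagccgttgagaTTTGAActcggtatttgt

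NCAPD3, chr11:134223953-134223982, minus strand: gcgggagcgagcTTTGAAagttgagcacgg

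NCAPG2, chr7:158704755-158704784, minus strand: gcgccggcgggtgcgTTTGAAtctggtccg

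SMC2, chr9:104094294-104094323, plus strand: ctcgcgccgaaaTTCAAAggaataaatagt

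SMC4, chr3:160399563-160399592, plus strand: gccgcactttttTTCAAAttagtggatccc

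In NCAPG the match began 35 bases before the start, in NCAPD2 145, in SMC4 75, and in SMC2 and NCAPD3 3 bases before it, while in NCAPG2 it began at base 36 after the start. The member with the largest fall, NCAPH, had no such letters in its window. It held 1 CCAAT, the box bound by NF-Y, at 112 bases before the start. CCAAT was found in 3 of the 10 windows (NCAPD2, NCAPD3 and NCAPH), against 34.6% of all windows, and NCAPD2 held 4 of these boxes. An E2F site, searched as TTTGGCGC, TTTCCCGC, TTTGCCGC or TTTCGCGC, was found in 1 window (NCAPD3), against 3.31% of all. Pairs of heat shock units, searched as GAANNTTC or TTCNNGAA, were found in 3 windows (NCAPD3, NCAPG and SMC4), against 13.5% of all; the one in NCAPG overlapped its TTTGAA by the letters GAA. NCAPD3, the member with the smallest fall, was the only one whose window held every motif searched. Whether motif content goes with the size of the fall was not tested. Both strands were read for each motif. These matches are a description of letters, and no binding was measured.

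SMC2, one of the shared ATPase subunits (ENSG00000136824, GRCh38 chromosome 9, 104094260 to 104141417), had 1458, 1348, 1575 and 1365 normalized counts in DTHIB libraries, against 4027, 4072, 3839 and 3736 in DMSO libraries. The highest DTHIB library held 42.2% of the lowest DMSO library. The log2 fold change, on the log2(normalized count + 1) scale used for every gene, was -1.45 (SE 0.046; limma adjusted p = 4.88e-14).

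Its partner SMC4 (ENSG00000113810, chromosome 3, 160399274 to 160434962) had 4283, 4167, 4846 and 4189 normalized counts in DTHIB libraries, against 9826, 9708, 9670 and 9465 in DMSO libraries. Its log2 fold change was -1.15 (SE 0.040; limma adjusted p = 1.68e-13). The ratio of SMC2 to SMC4 counts was 0.329 ± 0.0078 in DTHIB libraries and 0.405 ± 0.012 in DMSO libraries (SD, n = 4 each), without overlap between groups, so the partners of the ATPase pair did not fall by the same factor. This ratio was looked at after its values were seen and was given no test. A part of the SMC4 exons, 18.5%, is shared with TRIM59 and 7.18% with IFT80, both on the opposite strand. Whether the counting used strand was not given in the sources used here; reads in shared exons cannot be assigned with certainty. TRIM59 itself fell (log2 fold change -0.77) and IFT80 rose (0.18).

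**Figure D1:**
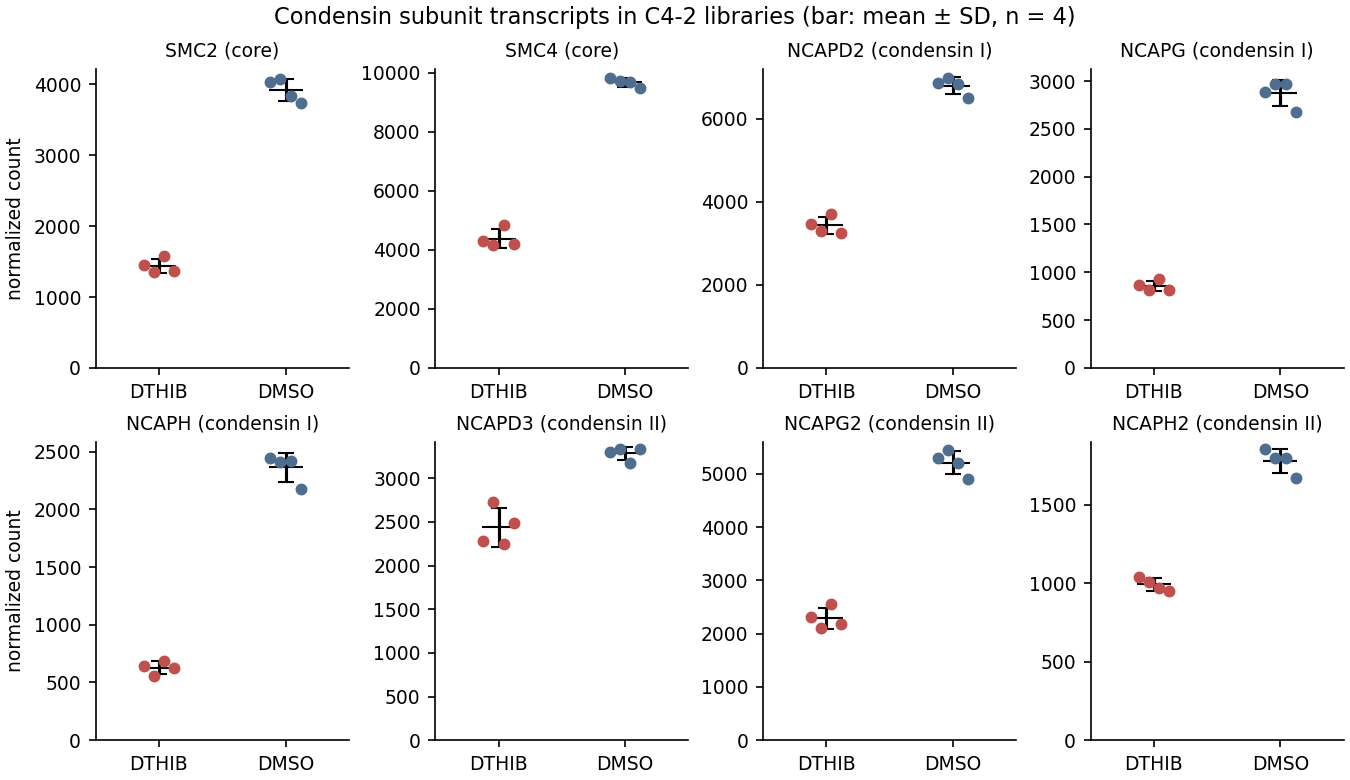
Normalized count (y axis, from 0) of each of the 8 condensin subunits in the 4 DTHIB libraries (red) and the 4 DMSO libraries (blue), with the mean and SD as bars. In every panel the DTHIB points lie below the DMSO points; relative to the DMSO mean the gap is widest for NCAPH, where the DTHIB mean is 26.6% of the DMSO mean, and narrowest for NCAPD3, where it is 74.2%.

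Within condensin I the kleisin NCAPH and the NCAPG subunit had larger fold changes than NCAPD2. NCAPH (ENSG00000121152, chromosome 2, 96335787 to 96373845) had 644, 559, 688 and 621 normalized counts in DTHIB libraries, against 2449, 2415, 2419.7 and 2174 in DMSO libraries. The coefficient of variation was 8.58% in DTHIB libraries, where replicate 2 was lowest, and 5.40% in DMSO libraries, where replicate 4 stood below the other 3. The log2 fold change of NCAPH was -1.91 (SE 0.056, limma adjusted p = 2.1e-14). Of all genes tested, 0.529% had a log2 fold change as low or lower, whether or not they passed the test.

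NCAPG, a HEAT-repeat subunit whose budding yeast counterpart holds DNA together with the kleisin (ENSG00000109805, chromosome 4, 17810902 to 17844862), had 864, 817, 929 and 817 normalized counts in DTHIB libraries, against 2890.4, 2971, 2965 and 2680.5 in DMSO libraries. The log2 fold change was -1.75 (SE 0.046; limma adjusted p = 6.68e-15), as far or further than in all but 0.855% of genes tested. Of its exon bases 33.1% are shared with LCORL on the opposite strand, a gene with 529 ± 21.2 normalized counts in DTHIB libraries and 596 ± 4.62 in DMSO libraries (log2 fold change -0.17). How many of the shared reads belong to NCAPG was not tested.

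NCAPD2, the other HEAT-repeat subunit of condensin I (ENSG00000010292, chromosome 12, 6493356 to 6531955), had 3473, 3302, 3707 and 3258 normalized counts in DTHIB libraries, against 6875, 6981, 6837 and 6498 in DMSO libraries. Its log2 fold change was -0.99 (SE 0.038; limma adjusted p = 6.87e-13), just short of 2-fold. MRPL51 shares 7.49% of the NCAPD2 exon bases on the opposite strand. The MRPL51 log2 fold change of -0.11 did not pass limma under quantile normalization or without DTHIB replicate 2 (adjusted p = 0.448 and 0.0562).

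The condensin II subunits had log2 fold changes between -1.19 and -0.44. NCAPG2 (ENSG00000146918, chromosome 7, 158631311 to 158704829), the counterpart of NCAPG, had 2312, 2098, 2549 and 2188 normalized counts in DTHIB libraries, against 5297, 5438, 5198 and 4909 in DMSO libraries. It fell furthest of the condensin II subunits, at -1.19 on the log2 scale (SE 0.049; limma adjusted p = 1.37e-12). NCAPH2, the kleisin of condensin II (ENSG00000025770, chromosome 22, 50508216 to 50523472), had 1041, 1007, 973 and 949 normalized counts in DTHIB libraries, against 1856, 1799, 1795 and 1672 in DMSO libraries. Its log2 fold change was -0.84 (SE 0.042; limma adjusted p = 1.73e-11).

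NCAPD3, the counterpart of NCAPD2 (ENSG00000151503, chromosome 11, 134150119 to 134225454), had 2279.7, 2734, 2249 and 2486 normalized counts in DTHIB libraries, against 3305, 3335, 3171 and 3335 in DMSO libraries. The DTHIB library of replicate 2 came nearest to the DMSO group, and the highest DTHIB value was 86.2% of the lowest DMSO value. It had the smallest fall of the 8, at -0.44 on the log2 scale (SE 0.049, limma adjusted p = 6.34e-07). Of all genes tested, 13.9% had a log2 fold change as low or lower, whether or not they passed the test. Opposite-strand neighbours share 5.10% (JAM3, log2 fold change -0.54) and 2.73% (VPS26B, log2 fold change 0.19) of its exon bases. AP001775.2 shares 1.05% but had too few counts to be tested. SMC2, NCAPH, NCAPG2 and NCAPH2 overlap no other gene in GENCODE release 29. Pseudogenes named after SMC4, NCAPD2 and NCAPG held at most 0.731 normalized counts on average.

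**Figure D2:**
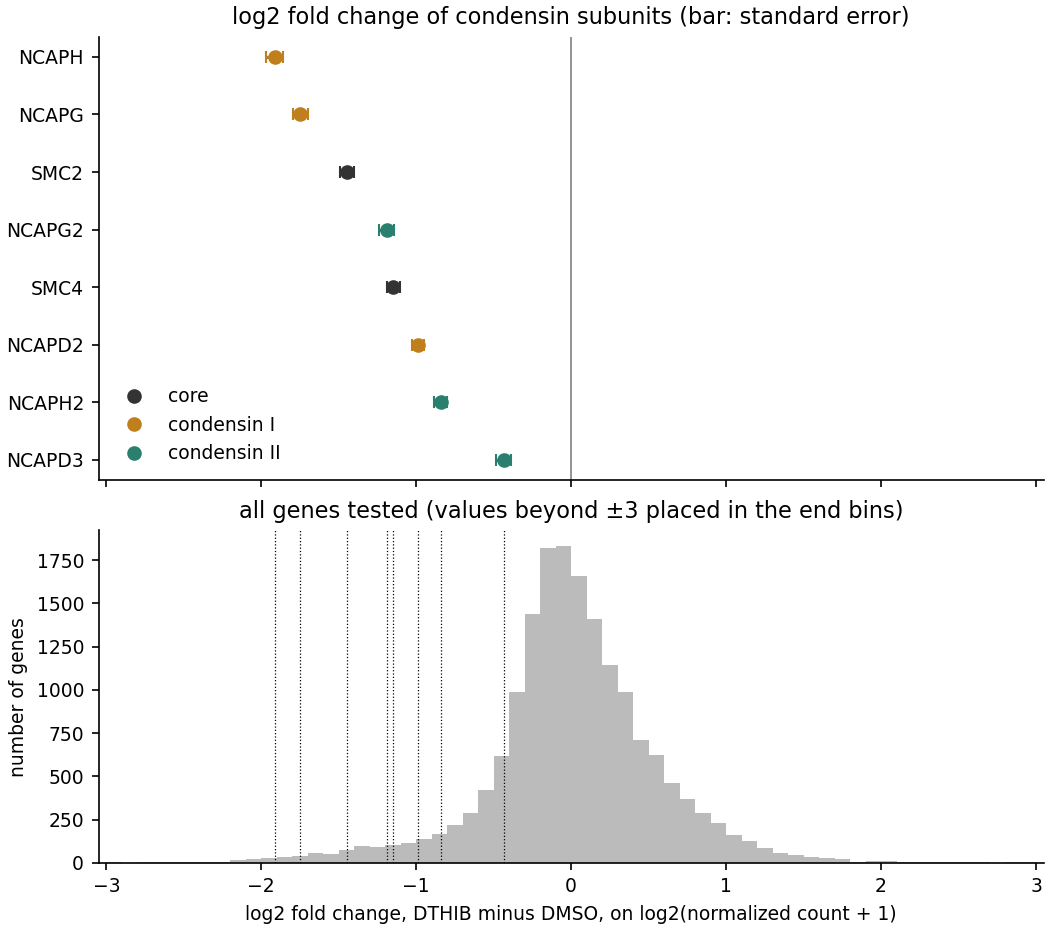
Top: log2 fold change (DTHIB minus DMSO, x axis) of each subunit with its standard error, from NCAPH (-1.91) to NCAPD3 (-0.44), coloured by complex. Bottom: number of genes (y axis) per fold change among all 17194 genes tested, with dotted lines at the 8 subunits; all 8 lines lie left of the median of all genes (-0.0051).

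The authors' deposited table gave the same direction for all 8 subunits, with log2 fold changes of -1.90 for NCAPH, -1.74 for NCAPG, -1.44 for SMC2, -1.18 for NCAPG2, -1.14 for SMC4, -0.98 for NCAPD2, -0.84 for NCAPH2 and -0.43 for NCAPD3. The order of the members is identical in the limma fit.

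Levels of different subunits were compared per kb of merged exon. This length includes bases shared with opposite-strand genes, 33.1% in NCAPG (LCORL) and 18.5% (TRIM59) and 7.18% (IFT80) in SMC4. NCAPD2 and NCAPD3 have smaller shared parts. Whether reads there were counted is not known, so levels and ranks of these members, and sums that include them, are uncertain. In DTHIB libraries NCAPD2 (530 ± 31.4 normalized counts per kb) and SMC4 (517 ± 37.9) led with overlapping values. NCAPG2 (327 ± 28.0) and NCAPH2 (314 ± 12.8) followed, also overlapping, then NCAPD3 (267 ± 24.6). SMC2 (222 ± 16.1), NCAPH (192 ± 16.4) and NCAPG (174 ± 10.8) were lowest, and each overlapped its neighbour in this order. In DMSO libraries the order was SMC4 (1143 ± 17.8), NCAPD2 (1048 ± 32.2), NCAPG2 (746 ± 32.0), NCAPH (721 ± 38.9), SMC2 (606 ± 24.5), NCAPG (585 ± 27.6), NCAPH2 (564 ± 24.5) and NCAPD3 (361 ± 8.57). There, NCAPG2 and NCAPH overlapped, SMC2, NCAPG and NCAPH2 all overlapped one another, and NCAPD3 stood apart at the bottom. NCAPH thus held rank 7 of 8 under DTHIB and rank 4 under DMSO, while NCAPD3 held rank 5 and rank 8.

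The order depends in part on the length used. With the length of the longest principal protein-coding transcript in place of merged exons, NCAPH held rank 7 in DTHIB libraries and rank 5 in DMSO libraries, NCAPD3 rank 5 and rank 7, and SMC4 was highest in both groups. Summed per kb of merged exon, the 3 condensin I subunits made up 49.6% ± 1.43 of the non-SMC subunit signal in DTHIB libraries and 58.5% ± 0.43 in DMSO libraries (SD, n = 4 each). The share ran from 47.9% to 51.3% in DTHIB libraries and from 58.0% to 59.1% in DMSO libraries, without overlap; as a value over chosen members it was given no test. Per kb of the principal transcript, a length tried for this share after its values were seen, it was 40.0% ± 1.38 in DTHIB libraries and 48.7% ± 0.45 in DMSO libraries, again without overlap. Which complex had the larger summed level in DMSO libraries thus depended on the length used.

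**Figure D3:**
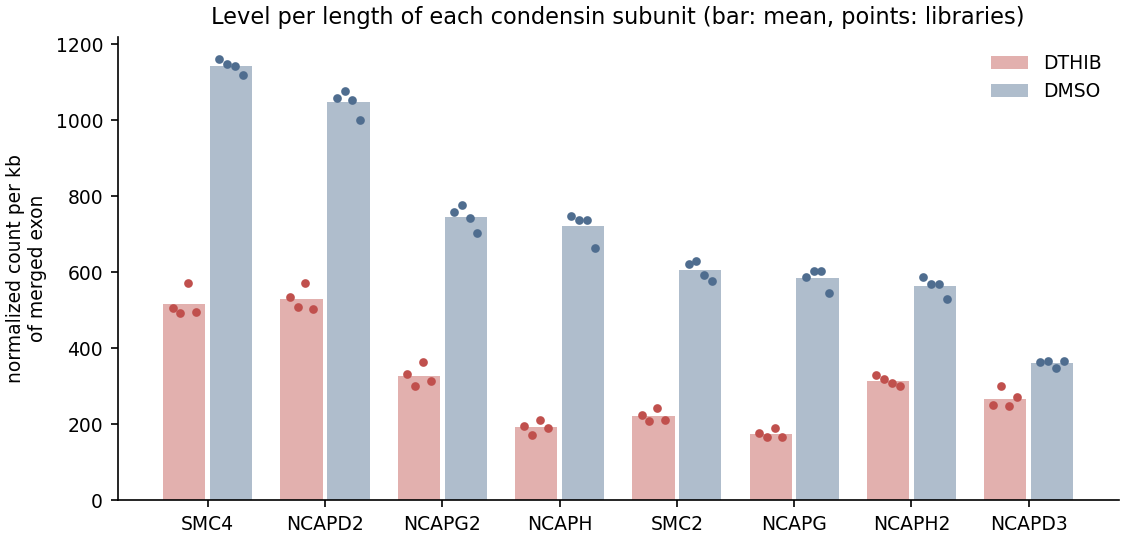
Normalized count per kb of merged exon (y axis, from 0) for each subunit, DTHIB (red) beside DMSO (blue), ordered by the DMSO mean; bars are means and points are the 4 libraries. NCAPH drops to 192 in DTHIB libraries, against 721 in DMSO libraries, below NCAPD3 at 267 in DTHIB libraries, against 361 in DMSO libraries.

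Whether condensin I subunits responded differently from their condensin II counterparts was tested within libraries, as the ratio of the matching subunits. Across pairs the log2 fold changes of the complexes overlapped, as NCAPG2 of condensin II (-1.19) fell further than NCAPD2 of condensin I (-0.99). The kleisin ratio, NCAPH over NCAPH2, was 0.619, 0.555, 0.707 and 0.655 in DTHIB libraries, against 1.32, 1.34, 1.35 and 1.30 in DMSO libraries. Per kb of merged exon, NCAPH stood at 170 to 210 normalized counts in DTHIB libraries, below NCAPH2 at 300.3 to 329, and in DMSO libraries at 663 to 747, above NCAPH2 at 529 to 588. Per kb of the principal transcript their DMSO values overlapped. The mean log2 ratio differed by -1.07 between DTHIB and DMSO (two-sided exact permutation p = 0.0286).

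NCAPG over NCAPG2 was 0.374, 0.389, 0.364 and 0.373 in DTHIB libraries, against 0.546, 0.546, 0.570 and 0.546 in DMSO libraries. Its log2 mean differed by -0.56 (two-sided exact permutation p = 0.0286). NCAPD2 over NCAPD3 was 1.52, 1.21, 1.65 and 1.31 in DTHIB libraries, against 2.08, 2.09, 2.16 and 1.95 in DMSO libraries, a difference of -0.55 in the log2 mean (two-sided exact permutation p = 0.0286). All 3 ratios were lower in all 4 DTHIB libraries than in any DMSO library. So was the ratio of SMC2 to SMC4, whose members belong to both complexes. How often ratios of other gene pairs separate in this way was not counted. The p of 0.0286 is the smallest that 4 against 4 libraries allow, it is 0.0286 after Benjamini-Hochberg adjustment over the 3 pairs, and a ratio within a library shows unequal change of its members. The pairs were chosen with their fold changes known, so these tests are no independent evidence.

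**Figure D4:**
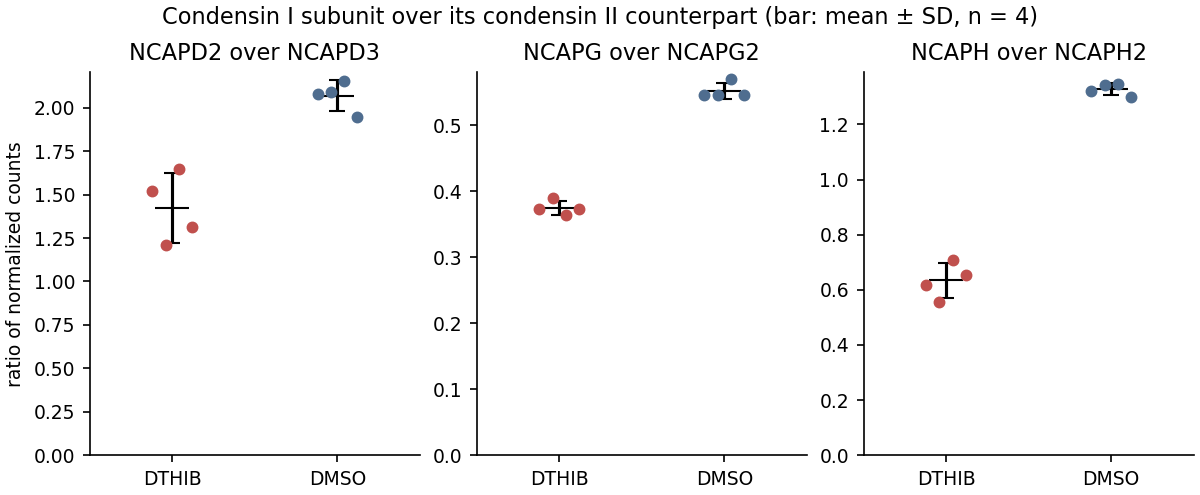
Ratio of normalized counts (y axis, from 0) of each condensin I subunit to its condensin II counterpart in the 4 DTHIB libraries (red) and 4 DMSO libraries (blue), with mean and SD. NCAPH over NCAPH2 averages 0.634 in DTHIB libraries and 1.33 in DMSO libraries, NCAPG over NCAPG2 0.375 and 0.552, and NCAPD2 over NCAPD3 1.42 and 2.07.

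Most members had the same library highest in the DTHIB group and the same library lowest in the DMSO group. In DTHIB libraries the coefficient of variation of a member ran from 4.06% to 9.19%, and in DMSO libraries from 1.55% to 5.40%. The DTHIB library of replicate 3 held the highest DTHIB value of 6 members and the DMSO library of replicate 4 the lowest DMSO value of 7. How many of all genes tested had these same libraries highest or lowest was not counted. These counts are therefore not read as a trait of the members. The other 2 members in the DTHIB group were NCAPD3, lowest in replicate 3 and highest in replicate 2, and NCAPH2, highest in replicate 1 and lowest in replicate 4. The other member in the DMSO group was NCAPD3, lowest in replicate 3. Over the 8 libraries the log2 values of 7 members correlated with the mean of all 8 members at r of 0.994 to 0.999, and those of NCAPD3 at r = 0.928; each member is part of that mean, and the group difference is shared by all points.

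The genes outside the complex whose log2 values followed the members' mean most closely over the 8 libraries were ATAD2 (an ATPase that binds acetylated histones), BRCA1 (homologous recombination), RRM2 (a ribonucleotide reductase subunit), MCM4 (a replicative helicase subunit) and STIL (centriole duplication), each with Pearson r of 1.00 when rounded. They were ranked among 11866 genes with a mean of at least 100 normalized counts, of which 19.3% reached r of 0.95; the group difference enters each r. ATAD2 had 5815 ± 224 normalized counts in DTHIB libraries and 14324 ± 452 in DMSO libraries, and STIL had 817 ± 23.4 and 1984 ± 58.0. The log2 fold changes were -1.30 for ATAD2, -1.65 for BRCA1, -2.35 for RRM2, -1.62 for MCM4 and -1.28 for STIL.

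Genes that phosphorylate, recruit or otherwise regulate condensin fell too. All 12 on this list fell (median log2 fold change -1.45), 8 of them at least 2-fold. Among all genes tested, 33.7% fell and 4.36% fell at least 2-fold. CDK1, the mitotic kinase that phosphorylates condensin, had 4576 ± 481 normalized counts in DTHIB libraries and 15207 ± 789 in DMSO libraries, a log2 fold change of -1.74. AURKB (-1.72), the kinase of the chromosomal passenger complex, and its partner BIRC5 (-1.72) changed by a like amount, followed by PLK1 (-1.61). The 4 members with smaller falls were MCPH1 (-0.34), a negative regulator of condensin II, AKAP8 (-0.20), a chromatin anchor for condensin, KMT5A (-0.18), the histone H4 lysine methyltransferase, and CSNK2A1 (-0.18), a subunit of casein kinase 2.

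Genes for other proteins of the mitotic chromosome axis and surface had lower RNA levels as well. All 6 listed genes fell (median -1.25), against 33.7% of all genes tested. NUSAP1 was at -1.76, TOP2A at -1.39, KIF4A at -1.38 and MKI67 at -1.13. TOP2A, the topoisomerase II of mitotic chromosomes, had 3008 ± 252 normalized counts in DTHIB libraries and 7874 ± 380 in DMSO libraries. Its paralogue TOP2B, which is also made in cells that do not divide, had 7450 ± 168 and 8320 ± 135, a log2 fold change of -0.16.

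The other SMC complexes were given the same readout. All 5 cohesin core genes fell, against 33.7% of all genes tested, none of them 2-fold, with a median of -0.52. SMC1A was at -0.65, RAD21 at -0.59, STAG1 at -0.52, SMC3 at -0.44 and STAG2 at -0.12. Of 7 genes of the SMC5/6 complex, which acts in DNA repair, 5 could be tested and 3 fell, beside that same 33.7%. These were SMC6 at -0.54, SMC5 at -0.38 and NSMCE2 at -0.23. NSMCE4A had a log2 fold change of -0.06 and NSMCE1 of 0.06, neither past the test (limma adjusted p = 0.157 and 0.232), although NSMCE1 did pass without DTHIB replicate 2 (0.11, adjusted p = 0.0214) and under quantile normalization (0.15, adjusted p = 0.00958). Medians of these lists are set side by side without a test of their difference.

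Regulators of cell cycle promoters moved unevenly. The list of 15 held genes of the DREAM and MuvB assemblies and NF-Y, and also E2F1, which is not a DREAM subunit. Of the 15, 11 fell and 2 rose, with a median of -0.59. Among all 17194 genes tested, 5786 fell and 5324 rose. MYBL2, the B-MYB activator, had 1981 ± 187 normalized counts in DTHIB libraries and 7633 ± 221 in DMSO libraries (log2 fold change -1.95). E2F1 (-1.81), the forkhead activator FOXM1 (-1.57) and LIN9 (-1.45), of the MuvB core, also fell. RBL2, a pocket protein of the repressive DREAM complex, rose (0.11), while RBL1, also a pocket protein, fell (-1.16). The MuvB subunit LIN37 rose too (0.41), with 75.6 ± 10.9 normalized counts in DTHIB libraries and 56.7 ± 6.44 in DMSO libraries. The LIN37 call was lost under quantile normalization (adjusted p = 0.0647) and without DTHIB replicate 1 or 2 or DMSO replicate 1 or 4 (adjusted p = 0.0501 to 0.067). The fall of NFYA (-0.10), counted among the 11, was lost in 9 of 17 alternatives. E2F4 (0.02) and NFYC (0.04) did not pass (limma adjusted p = 0.513 and 0.366) but did under quantile normalization (0.12 and 0.13; adjusted p = 0.00586 and 0.00954).

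**Figure D5:**
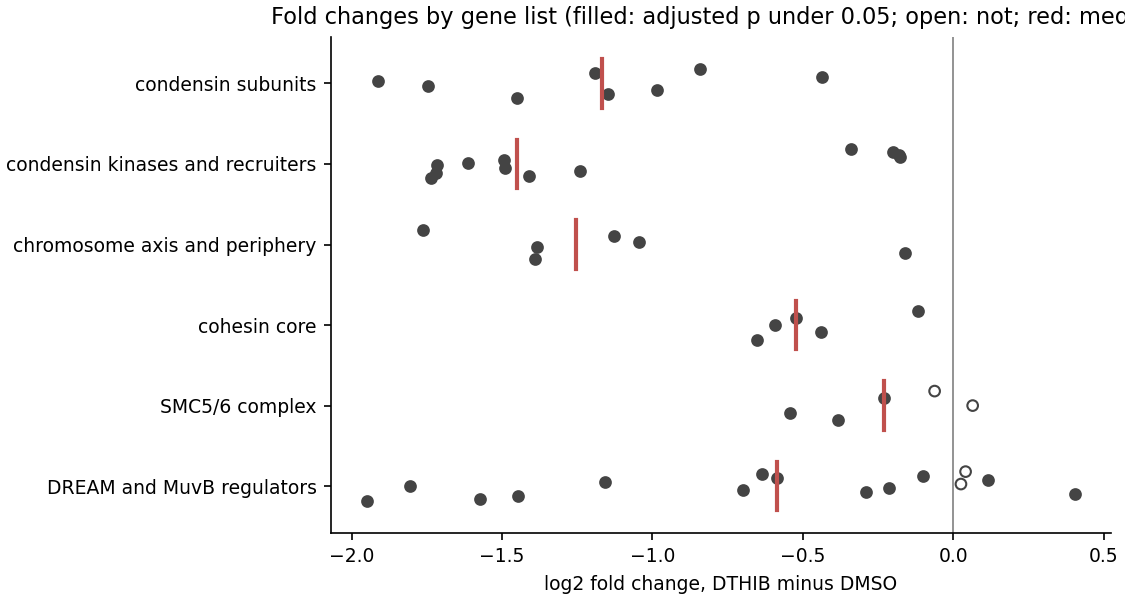
Log2 fold change (DTHIB minus DMSO, x axis) of the condensin subunits and of each tested gene in 5 related lists (y axis); filled points passed limma's adjusted p of 0.05, open points did not, and red lines are medians. The medians are -1.17 for condensin subunits, -1.45 for condensin kinases and recruiters, -1.25 for the chromosome axis and periphery, -0.52 for cohesin, -0.23 for SMC5/6 and -0.59 for DREAM and MuvB regulators.

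The labels do not say whether the 4 libraries of a group came from separate cultures, so p-values cover the spread between these libraries, which may be technical. The proliferation genes listed above moved with the condensin subunits, and their part in the result was not tested.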

How the data were processed

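The submitters' processing notes list, on the build GRCh38, featureCounts 1.6.3, DESeq2 2.11.40.2, HISAT2 2.1.0, StringTie 1.3.4 and Trimmomatic 0.36.5; settings, strand use and annotation release were not given in the sources used here. The signal that the authors deposited is a DESeq2-normalized count per gene and library. All values (100% within 0.01) were multiples of the value of 1 read, so reads could be recovered. The authors also deposited, without a header, a mean signal, a log2 fold change with its standard error, a Wald score, a p-value and an adjusted p-value per gene.

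Log2(normalized count + 1) was tested with limma 3.58.1 in R 4.3.3 (eBayes with trend, two-sided, no covariates), with p-values adjusted over all 17194 genes; "rose", "fell" and "changed" mean an adjusted p under 0.05. Ratios between subunits were tested by exact permutation of the 8 libraries. Symbols matched 58472 identifiers, and GENCODE release 29, source of positions and exon lengths, held 58611. The tests were tried on simulated counts. No pair of libraries agreed within sampling noise (chi-square of 2.39 or more per gene).

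The alternatives were edgeR 4.0.16 and DESeq2 1.42.0 on recovered reads, TMM, quantile normalization, a pseudocount of 0.5 or 5, a mean of at least 50 or no filter, a replicate block, and each library left out. Text names all members, up to 4 genes per list by size of change plus those that did not pass or went against the list, and the 5 genes most like the members; further list genes, overlapping genes and markers were named after their values were seen. Members and lists were chosen with earlier results of these data known.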

Additional observations from a re-analysis of the deposited data

Results flagged for a closer look

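NCAPH in the DMSO group had 1 library apart from the others: replicate 4 held 2174 normalized counts against 2415 to 2449 in the other 3, a gap of 0.878 of the group's range. The ratio of NCAPG to NCAPG2 in the DMSO group was 0.570 in replicate 3 and 0.546 in each of the other 3, a gap of 0.971 of the range on the log2 scale. These were 2 of 22 groups of 4 libraries looked at, and chance alone marks about 1 in 20. Neither library moves its group near the DTHIB values.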

How the results depend on the processing

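All 8 subunits stayed lower in DTHIB libraries and past the test in each of the 17 alternatives run on them, 136 fits in all, with the highest adjusted p at 3.15e-05 (NCAPD3, quantile normalization). Log2 fold changes ran from -1.96 to -1.85 for NCAPH and from -0.49 to -0.35 for NCAPD3. The number of genes called was 11110 and stayed between 9483 (mean of at least 50) and 11557 (no filter), with 10283 by DESeq2 and 10383 to 10883 without 1 library. With the replicate block it was 11058; same-numbered libraries did not deviate together (r of -0.07 to 0.01 over genes), nor did each correlate best with its own number, so the numbers were not taken as pairs. As 4 same-numbered differences, the log2 ratios of NCAPD2 over NCAPD3 (-0.55), NCAPG over NCAPG2 (-0.56) and NCAPH over NCAPH2 (-1.07) have the same size under this replicate block, with an exact p of 0.125, the smallest that 4 pairs allow. Without 1 library they ran from -0.62 to -0.48, from -0.57 to -0.54 and from -1.13 to -1.01, each with an exact permutation p of 0.0571, the smallest that 3 against 4 allow. Depth limits none of the 8 subunits, each with at least 536 reads in every library, but strand was not stated, which leaves the shared exons of SMC4, NCAPG, NCAPD2 and NCAPD3 uncertain.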
